A study of Mus musculus with 6 samples.

Results

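The sperm ion channel genes described here are 10 genes picked by symbol: 8 CatSper genes (the pore subunits Catsper1, Catsper2, Catsper3 and Catsper4 and the auxiliary subunits Catsperb, Catsperd, Catsperg1 and Catsperg2), the potassium channel Kcnu1 and the proton channel Hvcn1. All 10 were listed in all 6 libraries, out of 23253 genes listed in any, and all 10 passed the filter on low counts. The libraries hold poly(A) RNA from whole testes of C57BL/6 mice aged 8 months, 3 labelled control and 3 labelled L3mbtl2 cKO, a conditional knockout of a Polycomb-associated chromatin protein. The deleter strain and the cells that lost the gene are not given in the sources used here, and nothing states that libraries of a group came from separate mice, so the p-values cover library-to-library spread alone, some of which may be technical.

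CatSper is the calcium channel of the sperm tail. Its pore is made of a ring of 4 different subunits, each with a voltage-sensing and a pore region, and its auxiliary subunits, most of them spanning the membrane with large extracellular domains, form a canopy over the pore. Alkaline pH inside the cell opens the channel, and the calcium that enters drives the vigorous asymmetric beating called hyperactivation, which sperm need to pass the egg coat. Kcnu1 encodes SLO3, the pH-sensitive potassium channel that sets the membrane voltage of mouse sperm. Hvcn1 encodes a voltage-gated proton channel that moves acid out of cells and is also used by phagocytes. The CatSper genes and Kcnu1 are transcribed in the testis by meiotic and haploid germ cells, long before the protein is used.

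The genotype labels are in doubt. L3mbtl2 itself had 658, 705 and 673 expected counts under the control label and 1030, 1105 and 1031 under the cKO label, higher where the gene should be lost. From the counts its log2 fold change was 0.67 (SE 0.10; edgeR adjusted p = 0.166, DESeq2 adjusted p = 0.00031). By FPKM the gap was narrower, at 14.0, 14.9 and 13.6 against 15.9, 17.1 and 16.03, and why the scales differ was not tested. The deposited tables are also named for the opposite genotype from the sample titles. Groups follow the titles, each library is called by its label, and every direction would turn if the labels were exchanged. The libraries held 17689205 to 18822050 expected counts. The libraries labelled control were uneven: across genes, log2 CPM of replicate 2 had a correlation of 0.980 to 0.982 with the cKO-labelled libraries and of 0.937 with replicate 3. Somatic and germ cell markers also differed in level between the labels. Leydig markers summed to 2107 to 10288 FPKM under the control label and 1496 to 1651 under the cKO label, and Sertoli markers to 1241 to 3051 against 935 to 989, with all 24 genes of these lists negative. The 20 spermatid markers summed to 20530 to 28556 against 29529 to 32090 FPKM, and all 20 were positive by TMM scaling. No marker of these 3 lists was at 0. The median log2 fold change was 0.29 for 14 spermatocyte markers, -0.45 for 11 spermatogonia markers, -0.61 for 7 peritubular myoid and -0.53 for 7 endothelial markers, and edgeR called 0 genes of any list. DESeq2 called 11 of 14 Sertoli, 4 of 10 Leydig, 6 of 10 macrophage, 3 of 11 spermatogonia and 2 of 7 myoid markers, all lower. It called 1 of 14 spermatocyte markers, higher, but no spermatid or endothelial marker. Over all genes it called 8.04% lower and 0.445% higher. Of 9 epididymis markers 4 (Lcn5, Lcn8, Lcn9 and Defb1) were at 0 and 1 could be tested. In whole testis, fewer cells of a type and less RNA per cell cannot be told apart, and the part of these shifts in the channel results was not tested.

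The CatSper genes and Kcnu1 had higher mean levels under the cKO label by a narrow margin of 1.12- to 1.37-fold, and Hvcn1 had a lower one at 0.671-fold, none of which passed the test. By TMM scaling 9 of the 10 were positive, where 49.5% of all genes were. Their median log2 fold change, labelled cKO minus labelled control, was 0.29 against -0.0048 over the 18269 genes tested. With the summed counts of the spermatid markers in place of TMM as the measure of library size, the median of the channels turned to -0.079 and that of all genes to -0.40, with 3 channels positive and 7 negative on that scale. With library totals the 2 medians were 0.20 and -0.10. edgeR's quasi-likelihood test called 0 of the 10 at an adjusted p of 0.05, as it called 0% of all genes in either direction, and the channels' adjusted p ran from 0.166 to 0.372. At an unadjusted p of 0.05, 5 of the 10 passed, all positive, where 8.85% of all genes passed in that direction. DESeq2 called Catsper3 higher (adjusted p = 0.0368) and no other channel, against 0.445% of genes called higher and 8.04% lower, and limma on log2(FPKM + 1) called none, against 0.0065% of genes called higher and 0% lower. One library decided the edgeR count: when labelled control replicate 2 was left out, 6 channels were called higher and Hvcn1 lower, where 11% of genes were higher and 20.7% lower. Without the library labelled control replicate 3 the median was 0.18 and no channel was called.

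**Figure D1:**
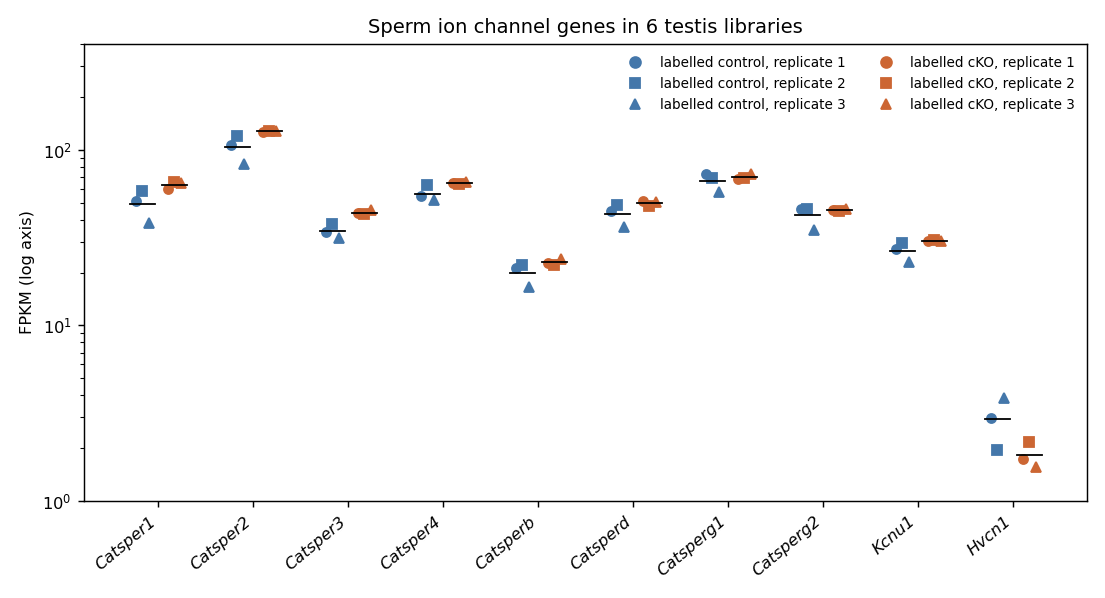
FPKM (log axis) of the 10 channel genes in each library; blue points are libraries labelled control, orange points libraries labelled cKO, the marker shape gives the replicate number and black lines are group means (n = 3 each). Catsper2 is highest at 83.0 to 127 FPKM and Hvcn1 lowest at 1.56 to 3.86, and the libraries labelled control spread more widely than those labelled cKO.

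Catsper1 encodes the pore subunit with the histidine-rich amino-terminal tail. It lies on the plus strand of mm10 chromosome 19 (5335615 to 5344281); positions of genes are RefSeq's. Its FPKM was 51.0, 58.4 and 38.1 under the control label, replicates 1 to 3, and 59.4, 65.5 and 64.4 under the cKO label. Every library labelled cKO lay above every library labelled control, but replicate 2 of the control label came within 1 FPKM of the lowest of them. The group means were 49.2 ± 10.3 and 63.1 ± 3.26 FPKM (SD, n = 3 each). The log2 fold change was 0.45 (SE 0.17), the highest of the 10 genes, with an adjusted p of 0.167 in edgeR, and 0.10 with spermatid scaling.

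Catsper2 was the most abundant of the 10 channel transcripts. It lies on the minus strand of chromosome 2 (121391633 to 121414598). FPKM stood at 106, 120.2 and 83.0 under the control label and at 127, 127 and 127 under the cKO label. The 3 libraries labelled cKO were nearly identical, with an SD of 0.142 around 127.2, while those labelled control had an SD of 18.76 around 103. This gave a log2 fold change of 0.39 (SE 0.15, edgeR adjusted p = 0.169), or 0.027 with spermatid scaling. Its promoter is shown because it was the richest in CpG dinucleotides of the 8 windows matched and is shared head to head with Pdia3, which encodes a chaperone of the endoplasmic reticulum and starts on the opposite strand. The Pdia3 start lies 17 bases inside the Catsper2 start of this window, and that start in turn lies 806 bases inside the outermost RefSeq position given above for the gene. The RefSeq window (GRCm38.p6, minus strand, 250 bases before to 50 after the start) is chr2:121413743-121414042, with capitals marking TGACG, the core of the cyclic AMP response element, here read on the other strand.

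Catsper2: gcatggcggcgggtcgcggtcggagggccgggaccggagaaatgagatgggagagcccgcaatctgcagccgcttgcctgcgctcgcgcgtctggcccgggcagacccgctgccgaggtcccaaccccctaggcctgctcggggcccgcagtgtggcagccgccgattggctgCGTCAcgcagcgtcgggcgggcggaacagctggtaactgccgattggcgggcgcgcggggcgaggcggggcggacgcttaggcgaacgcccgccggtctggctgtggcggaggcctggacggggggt

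That window was 74.7% G and C and held 41 CpG dinucleotides, where the median over the 32851 RefSeq promoter windows of mouse genes was 52.7% and 7. The TGACG core, which is the binding sequence of the CREB and CREM factors of germ cells, started 77 bases before the Catsper2 start, and 20.8% of all windows hold it on either strand.

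Catsper3 had the smallest p of the 10 channels. It lies on the plus strand of chromosome 13 (55784500 to 55824048). Its FPKM was 34.1, 38.0 and 31.3 under the control label and 43.4, 43.2 and 45.1 under the cKO label. No library labelled control reached the lowest of those labelled cKO, and the gap between the groups, from 38.0 to 43.2, exceeded the SD of either group (3.37 and 1.07). The log2 fold change was 0.44 (SE 0.12), with an unadjusted p of 0.00607 and an adjusted p of 0.166 in edgeR. Over 17 alternatives the adjusted p ran from 0.0139 to 0.738, and the log2 fold change stayed positive, from 0.062 with spermatid scaling to 0.56.

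Catsper4, the remaining pore subunit, lies on the minus strand of chromosome 4 (134211965 to 134227431). FPKM was 54.2, 63.0 and 51.7 under the control label against 64.7, 63.5 and 65.3 under the cKO label. The groups did not overlap, although replicate 2 of the control label and of the cKO label differed by less than 1 FPKM. Its log2 fold change was 0.30 (SE 0.11, edgeR adjusted p = 0.170), and it turned to -0.082 with spermatid scaling. Summed over the 4 pore genes, FPKM was 245, 279.7 and 204 under the control label and 294, 299 and 302 under the cKO label.

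Of the auxiliary subunits, Catsperd and Catsperb had changes near the median of the group. Catsperd, which encodes a subunit needed for the channel complex to be stable, lies on the plus strand of chromosome 17 (56626911 to 56664456). Its FPKM was 44.8, 48.4 and 36.4 under the control label and 51.3, 48.1 and 50.4 under the cKO label. These overlap, since replicate 2 of the control label exceeded replicate 2 of the cKO label, whereas by TMM-scaled counts the groups did not overlap. The log2 fold change was 0.31 (SE 0.13, edgeR adjusted p = 0.178), or -0.064 with spermatid scaling. The RefSeq promoter table holds 2 starts for Catsperd, neither of them the outermost RefSeq position given above. The upstream one, 136 bases inside that position and 160 bases from the oppositely oriented start of the mitochondrial protease gene Lonp1, is shown because it was the only one of 8 windows from 6 channel genes with the letters CACGTG. That E-box is the sequence bound by MGA with MAX, partners of L3MBTL2 in its Polycomb complex. In the GENCODE annotation Catsperd begins at 56628143, past the end of this window. The window is chr17:56626797-56627096 (GRCm38.p6, plus strand), with capitals marking CACGTG and the copies of TGACG on either strand.

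Catsperd: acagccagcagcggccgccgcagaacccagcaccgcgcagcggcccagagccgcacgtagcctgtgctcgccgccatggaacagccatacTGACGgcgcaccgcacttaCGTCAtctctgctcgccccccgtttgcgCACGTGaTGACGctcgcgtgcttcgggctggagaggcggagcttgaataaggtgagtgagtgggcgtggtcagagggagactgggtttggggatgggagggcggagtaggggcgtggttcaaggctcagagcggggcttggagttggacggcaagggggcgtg

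The E-box began 113 bases before that start, and 7.15% of all windows hold one. The 3 copies of TGACG began 160, 141 and 106 bases before it; none overlaps the E-box. The window was 66.7% G and C with 29 CpG dinucleotides, and the downstream window of Catsperd held 12. None of the 8 windows held TCCCGC, a core of E2F sites (20% of all windows), the full element TGACGTCA (1.79%) or GTTGCC, part of the X-box read by RFX factors (12.5%), on either strand. The Catsper3, Catsper4 and Catsperb windows, with 3, 2 and 1 CpG dinucleotides, held none of the letters searched, nor did those of Catsperg1. No promoter window was matched for Catsper1, Catsperg2, Kcnu1 and Hvcn1. Only these exact letters were searched, so variant forms of the sites, such as other X-box sequences, were not looked for. These matches are letters in a window, and no binding was measured.

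Catsperb, on the plus strand of chromosome 12 (101404645 to 101626009), encodes an auxiliary subunit of the canopy and was the least abundant of the 8 CatSper transcripts picked. Its FPKM was 21.2, 22.0 and 16.6 under the control label and 22.5, 22.0 and 23.9 under the cKO label. Only replicate 3 of the control label was clearly lower, and the remaining libraries lay within 3 FPKM of each other. Its log2 fold change was 0.29 (SE 0.13, edgeR adjusted p = 0.193), or -0.075 with spermatid scaling. Of its 50-base stretches in GENCODE transcripts, 9.27% also occur in Gm18795, a separate annotated gene, so some reads may have been divided between them.

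Catsperg1 and Catsperg2 had the smallest fold changes of the 10. They are near-duplicate genes for the gamma subunit on the minus strand of chromosome 7 (29181532 to 29215589 and 29697217 to 29727049), separated by 481627 bases. Of the 50-base stretches of their transcripts, 43.0% of those of Catsperg1 and 44.1% of those of Catsperg2 occur in the other gene, and 23.7% and 24.8% of 100-base stretches, so the division of reads between them is an estimate and their levels are uncertain. Catsperg1 FPKM was 72.4, 69.2 and 57.2 under the control label and 68.0, 68.7 and 72.7 under the cKO label. The groups overlap, with replicate 3 of the control label the lowest. The log2 fold change was 0.17 (SE 0.13, edgeR adjusted p = 0.372). Catsperg2 stood at 45.9, 46.0 and 35.1 FPKM against 45.7, 44.6 and 45.9, again with 1 low library, and its log2 fold change was 0.20 (SE 0.13, edgeR adjusted p = 0.317). Without that library, labelled control replicate 3, the changes were 0.055 and 0.068. With spermatid scaling they turned to -0.20 and -0.17, at unadjusted p of 0.0443 and 0.0462 and adjusted p of 0.133 and 0.135 in edgeR.

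Kcnu1 followed the CatSper genes. It lies on the plus strand of chromosome 8 (25848627 to 25937943). FPKM was 27.1, 29.4 and 22.9 under the control label and 30.4, 30.6 and 30.1 under the cKO label. The groups did not overlap, and the libraries labelled cKO differed from each other by less than 1 FPKM. This gave a log2 fold change of 0.27 (SE 0.12, edgeR adjusted p = 0.185), or -0.099 with spermatid scaling. By TMM-scaled counts, 8 of the 10 channels had all libraries labelled cKO above all those labelled control, where 18% of all genes did; Catsperg1 and Hvcn1 overlapped. By FPKM it was 6 of 10 against 9.6% of all genes, with Catsperd and Catsperg2 overlapping too, and no channel had the reverse order, which 26.1% of all genes did. For any such gene an exact permutation test of 3 libraries against 3 gives a two-sided p of 0.1, the smallest it allows.

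**Figure D2:**
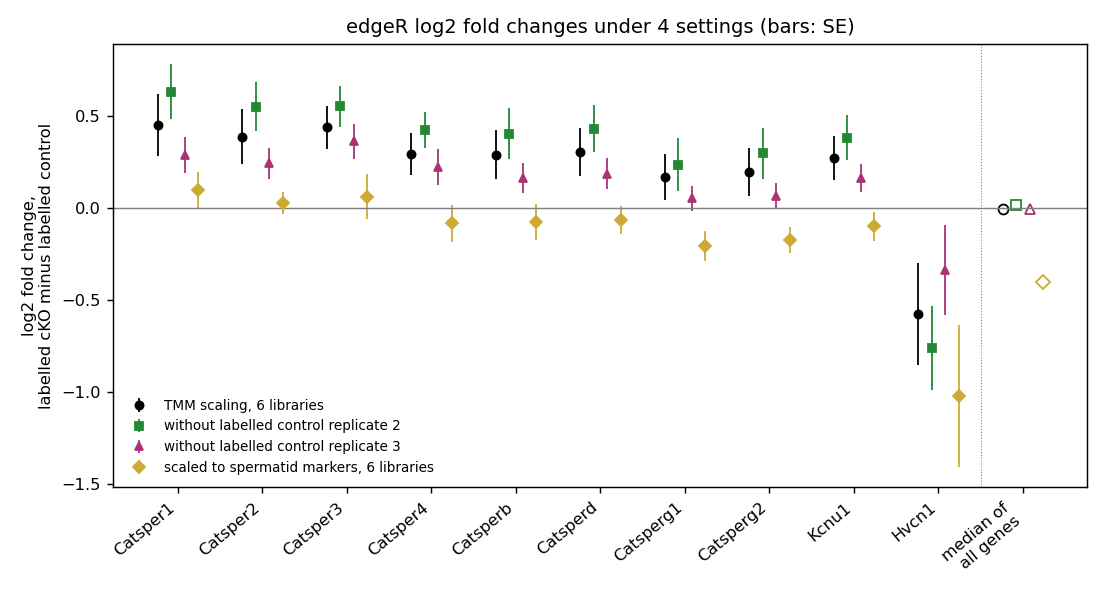
Log2 fold change (labelled cKO minus labelled control, edgeR) of each channel gene with its SE, with all 6 libraries, without labelled control replicate 2, without labelled control replicate 3, and with spermatid markers as the measure of library size; open symbols are the median of all genes in each fit. The 9 genes other than Hvcn1 are positive in the first 3 fits and 6 of them turn negative with spermatid scaling, where the median of all genes is -0.40.

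Hvcn1 went the other way and was rare. It lies on the plus strand of chromosome 5 (122206805 to 122242297). Its expected counts were 147, 98.4 and 189.8 under the control label and 89.96, 114 and 80.4 under the cKO label, and its FPKM was 2.99, 1.95 and 3.86 against 1.73, 2.18 and 1.56. Replicates 1 and 3 of the control label were above the rest, and replicate 2 lay among the cKO-labelled ones. Its log2 fold change was -0.57 (SE 0.28, edgeR adjusted p = 0.208), and it was negative under all 17 alternatives, from -1.02 with spermatid scaling to -0.34 without labelled control replicate 3. It was called only without labelled control replicate 2 (-0.76, edgeR adjusted p = 0.0402).

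The values of an overlapping gene and of phagocyte genes are set beside those of Hvcn1. In the GENCODE annotation 44.2% of its exon bases, 1574 of 3563, lie within exons of Tctn1, a gene of the ciliary transition zone on the opposite strand, and since strandedness is not given, reads of the pair cannot be told apart over that stretch. Tctn1 was at 16.9, 15.6 and 13.03 FPKM under the control label and 15.1, 15.6 and 14.9 under the cKO label (log2 0.067, SE 0.11, edgeR adjusted p = 0.702), values that overlap between the labels. The 6 phagocyte oxidase genes, which encode the phagocyte enzyme whose charge transfer the proton channel balances, summed to 10.5, 5.35 and 18.79 FPKM under the control label and 5.02, 5.66 and 4.03 under the cKO label, with all 6 log2 fold changes negative (median -1.05). That is the same order of libraries as for Hvcn1 within each group, but it is not particular to these genes. The Sertoli, myoid and endothelial sums had that order too. The macrophage sums had it under the control label only, and were 58.6, 57.1 and 50.7 FPKM under the cKO label. The 10 macrophage markers summed to 59.6 to 257 against 50.7 to 58.6 FPKM, with all 10 negative (median -1.45). No phagocyte oxidase gene or macrophage marker was at 0 in all libraries. The part of phagocytes, of other somatic cells or of Tctn1 reads in the Hvcn1 values was not tested.

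**Figure D3:**
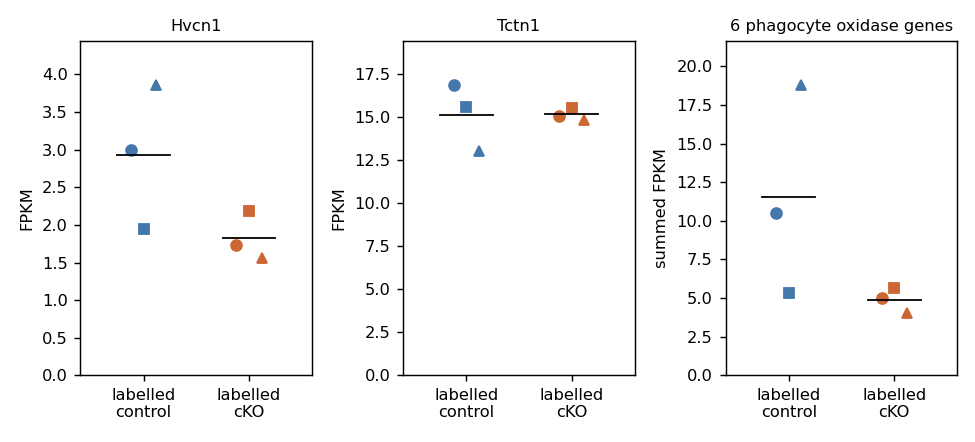
FPKM of Hvcn1, of the overlapping gene Tctn1, and summed FPKM of 6 phagocyte oxidase genes in each library (blue, labelled control; orange, labelled cKO; shapes give replicate numbers as in the plot of the 10 channels; lines are group means, n = 3 each). Hvcn1 and the oxidase genes are both highest in labelled control replicate 3 (3.86 and 18.79 FPKM), where Tctn1 is lowest (13.03). The Leydig, Sertoli and macrophage sums are highest in that library too.

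Per unit of transcript length, the channels stood in the same order under both labels. By mean FPKM over the 6 libraries it ran Catsper2 (115), Catsperg1 (68.0), Catsper4 (60.4), Catsper1 (56.1), Catsperd (46.6), Catsperg2 (43.9), Catsper3 (39.2), Kcnu1 (28.4), Catsperb (21.4) and Hvcn1 (2.38). Neighbours were compared within each library, which removes depth. Catsper2 exceeded Catsperg1, and Kcnu1 exceeded Catsperb, in 6 of 6 libraries. Catsper4 exceeded Catsper1 in 5 of 6 and Catsperd exceeded Catsperg2 in 5 of 6, so the order within these pairs is not fixed. In the libraries labelled cKO the ranges of Catsper4 and Catsper1 overlapped, as did those of Catsperg2 and Catsper3. Among those labelled control all 5 neighbouring pairs from Catsperg1 down to Catsper3 overlapped. Leaving out each library in turn kept all 10 ranks. The place of Catsperg1 depends on the length by which the authors divided: its deposited length was 7106 to 7397 bases, whereas its longest GENCODE transcript has 4403. Its expected counts were 2.69 to 2.98 times those of Catsperg2 in every library, where mean FPKM was 68.0 and 43.9.

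Ratios between channel genes within a library do not depend on how libraries are scaled, and those of the gamma genes to Catsper1 and Catsper3 lay apart between the labels. The count ratio of Catsperg1 to Catsper1 was 5.18, 4.26 and 5.34 under the control label and 4.03, 3.79 and 4.12 under the cKO label. Catsperg2 to Catsper3 was 4.11, 3.68 and 3.39 against 3.23, 3.16 and 3.10. Both ratios were lower in all 3 libraries labelled cKO, with mean differences of -0.946 and -0.570. Over all 28 pairs of CatSper genes, the ratio did not overlap between the labels in 9, and 8 of these 9 hold Catsperg1 or Catsperg2, in 13 pairs of 28 that do. The remaining pair was Catsper3 over Catsper4, at 0.482, 0.462 and 0.467 against 0.511, 0.518 and 0.529. Catsperg1 to Catsperg2 itself overlapped, at 2.95, 2.79 and 2.98 against 2.69, 2.86 and 2.98. The share of such pairs over all genes was not computed, so the count has no background to stand beside. Reads are divided between Catsperg1 and Catsperg2 by an estimate, so their pairs are not separate observations. The pairs share genes and the named ones were chosen after their values were seen, so no test is given.

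**Figure D4:**
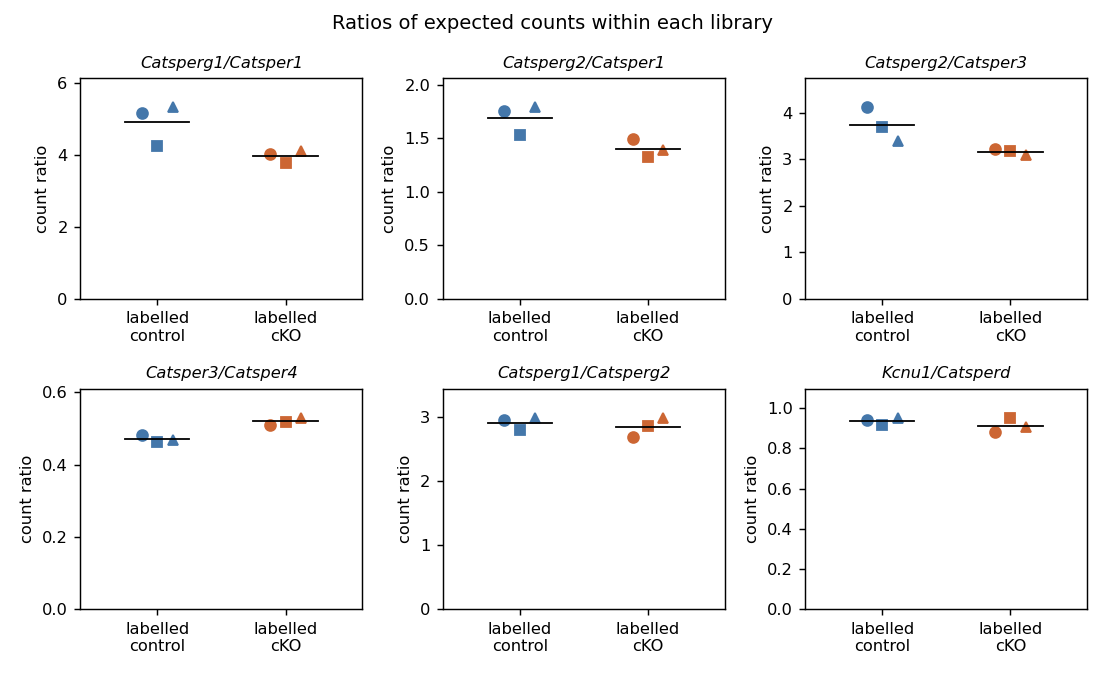
Ratios of expected counts between channel genes within each library (blue, labelled control; orange, labelled cKO; shapes give replicate numbers as in the plot of the 10 channels; lines are group means, n = 3 each; axes start at 0). The ratios of Catsperg1 or Catsperg2 to Catsper1 or Catsper3 are lower in all libraries labelled cKO, whereas Catsperg1 to Catsperg2 and Kcnu1 to Catsperd overlap.

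Of the shares within the pore, 3 of 4 overlapped between the labels. Catsper1 made up 20.8, 20.9 and 18.7% of the summed FPKM of the 4 pore genes under the control label and 20.2, 21.9 and 21.3% under the cKO label. Catsper2 made up 42.3 ± 1.40% against 42.6 ± 0.511% and Catsper3 14.3 ± 0.933% against 14.7 ± 0.260% (SD, n = 3 each), differences within the spread. The share of Catsper4 was 22.1, 22.5 and 25.3% against 22.0, 21.2 and 21.6%, lower in all libraries labelled cKO, by a mean difference of -1.73 percentage points, with labelled control replicate 3 the highest. Of the summed FPKM of all 8 CatSper genes, however, Catsper4 made up 13.7 ± 1.09% against 13.3 ± 0.147%, and the groups overlapped. On that measure only Catsperg1 and Catsperg2 were lower in all libraries labelled cKO, and the other CatSper genes overlapped. Shares of a sum are bound together, and reads are divided between Catsperg1 and Catsperg2 by an estimate, so these are not separate results. No background over all genes was computed for the shares. Relative to the summed counts of the spermatid markers, the log2 level of Kcnu1 was -7.59, -7.62 and -7.53 against -7.73, -7.67 and -7.63, and that of Catsperg2 -6.81, -6.91 and -6.85 against -7.07, -7.05 and -6.97. These were the 2 channels whose groups did not overlap on this scale, both lower under the cKO label, where 45.4% of all genes were lower and 0.766% higher without overlap. Against the summed spermatocyte markers the median difference of the 10 channels was -0.0054, and Catsper2 and Catsper3 were instead higher in all libraries labelled cKO, by 0.10 and 0.14, while Catsperg2 was lower in all 3, by a difference of -0.098. On that scale 2.27% of all genes were higher and 34.6% lower without overlap.

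Genes that work with these channels were read from a list of 44, of which 37 could be tested. edgeR called 0 of the 37 in either direction, and the median log2 fold change was 0.22 by TMM, with 25 positive, but -0.16 with spermatid scaling, with 6 positive. At an unadjusted p of 0.05, 8 of the 37 were higher and 4 lower, where 8.85% and 18.8% of all genes were. DESeq2 called 3 of the 37 lower (Slc4a2, Slc4a3 and Atp2b1), a share close to the 8.04% of all genes, and none higher, against 0.445%. Without labelled control replicate 2, edgeR called 12 higher and 5 lower, where it called 11% and 20.7% of all genes. By TMM-scaled counts, 11 of 37 had all libraries labelled cKO above all those labelled control and 5 had them below, where 18% and 19.8% of all genes did.

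The 5 measured genes of the CatSper complex outside the 10 were all positive by TMM, with a median of 0.32. Efcab9, the calcium sensor of the channel, was at 88.8, 105.4 and 83.5 FPKM under the control label and 114, 113 and 115 under the cKO label, without overlap (log2 0.39, SE 0.12, edgeR adjusted p = 0.166). Its partner Catsperz was at 269, 307 and 212 FPKM against 309.8, 307 and 307 (log2 0.32, SE 0.15, edgeR adjusted p = 0.194). With spermatid scaling these changes were 0.019 and -0.039, and without labelled control replicate 3 they were 0.32 and 0.18. Catspere1 and Tmem249 were not found under those names, nor was Slc9c2 among the exchangers.

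Of the 14 genes tested for proton exchange and bicarbonate signalling, 9 were positive and 5 negative by TMM. Adcy10, the soluble adenylyl cyclase that bicarbonate activates in sperm, was at 66.7, 75.5 and 47.9 FPKM under the control label and 81.2, 79.2 and 88.4 under the cKO label (log2 0.48, SE 0.18, edgeR adjusted p = 0.167; 0.12 with spermatid scaling and 0.30 without labelled control replicate 3). Akap4, the scaffold of protein kinase A in the tail, overlapped at 665 ± 95.7 against 774 ± 43.8 FPKM (SD, n = 3 each). The anion exchanger Slc4a3 lay the other way, at 7.51, 3.42 and 12.3 FPKM against 2.30, 2.69 and 2.28, with no overlap and a log2 fold change of -1.55 (SE 0.37; edgeR adjusted p = 0.166, DESeq2 adjusted p = 0.00564). Its relative Slc4a2 stood at 18.5, 12.2 and 23.8 against 10.4, 10.5 and 9.67 FPKM (log2 -0.71, SE 0.20; edgeR adjusted p = 0.166, DESeq2 adjusted p = 0.0302). Both were highest in labelled control replicate 3, the library with the highest Leydig, Sertoli and macrophage sums, and whether those cells carry the difference was not tested.

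Pumps and other regulators also lay in both directions. Atp1b3, a beta subunit of the sodium pump, stood at 246 ± 13.7 against 267 ± 9.42 FPKM, and the mitochondrial porin gene Vdac2 at 239 ± 17.2 against 259 ± 2.85 (SD, n = 3 each), with log2 fold changes of 0.22 (SE 0.10, edgeR adjusted p = 0.192) and 0.22 (SE 0.10, edgeR adjusted p = 0.198) that turned to -0.17 and -0.16 with spermatid scaling. The sperm polycystin-family gene Pkdrej was at 9.77, 9.40 and 6.89 FPKM against 11.3, 10.3 and 10.9 (log2 0.41, SE 0.15, edgeR adjusted p = 0.167), with a log2 fold change of 0.047 with spermatid scaling and 0.26 without labelled control replicate 3. Atp2b1, a calcium pump of the plasma membrane used in many tissues, was at 5.16, 3.32 and 10.5 FPKM against 2.22, 2.60 and 2.90 (log2 -1.19, SE 0.37; edgeR adjusted p = 0.166, DESeq2 adjusted p = 0.0241), again highest in labelled control replicate 3, and its log2 fold change was -0.63 without that library.

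**Figure D5:**
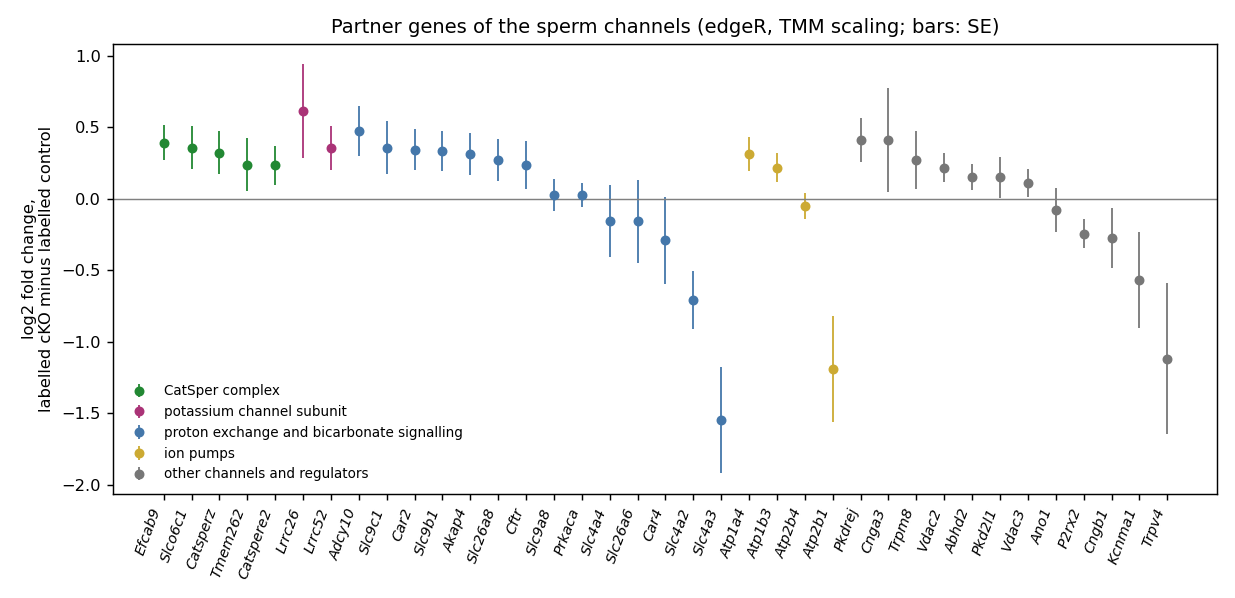
Log2 fold change (labelled cKO minus labelled control, edgeR with TMM) and SE of the 37 partner genes tested, coloured by role. The genes of the CatSper complex lie between 0.23 and 0.39, while Slc4a3 and Atp2b1 lie lowest at -1.55 and -1.19; with spermatid scaling only 6 of the 37 are positive.

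The pattern of the channels over the 6 libraries was shared by many genes. The mean of the 10 channels, each centred on its own mean log2 CPM, was lowest in labelled control replicate 3. Of 12411 other named genes with a mean FPKM of at least 1, 1602 had a Pearson correlation above 0.95 with that mean over the 6 libraries. The 5 closest were Cdca3 (r = 0.999), Ccdc151 (0.999), Tekt3 (0.999), Pgam2 (0.999) and Tdrd7 (0.998). All genes are read over the same 6 libraries, so these values describe the libraries, and what the genes share was not tested. Among the channels themselves Kcnu1 was closest to the mean at 0.998, Catsperg1 was at 0.908, and Hvcn1 was opposite at -0.896. Each channel is part of that mean, which raises its own correlation.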

How the data were processed

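Poly(A) RNA of whole mouse testis gave 6 libraries, 3 with each label. The deposited tables give expected counts and FPKM per gene; per the submitters' processing notes the tools were bcl2fastq 2.16, HISAT2 2.0.4, Bowtie2 2.2.5, RSEM and DESeq2 on mm10, and no source used here gives strandedness. Between 24.6% and 25.8% of counts were not whole, and expected counts from the deposited tables were rounded. Genes passing filterByExpr (minimum count 10, total 15) were fitted with edgeR 4.0.16 in R 4.3.3 (TMM, quasi-likelihood test, Benjamini-Hochberg over all 18269 genes, threshold 0.05). The fit was also run on simulated counts drawn independently for each library. These do not copy the uneven libraries labelled control, so they do not show how the fit behaves on such data. The common biological coefficient of variation was 22.8%. Alternatives used other scalings, filters, left-out libraries, a replicate block, DESeq2 1.42.0, and limma 3.58.1 on log2 of the deposited FPKM plus 1 or 0.1.

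Named genes are all 10 channels, L3mbtl2, the 6 partner genes with the smallest p and the 4 others with the highest FPKM, and the 5 genes most like the channels' mean. Members and lists were chosen with earlier results of these data known. Ratio pairs, partner roles, promoter motifs and the Tctn1 comparison were added after the data were seen. DESeq2 was configured in 3 ways after its counts of calls had been seen; the one reported uses the same filter and the tool's default settings, and the others are given with the alternatives. Gene positions and promoters are from RefSeq (GRCm38.p6) and transcript stretches from GENCODE. Replicate numbers gave no sign of pairing the libraries, and no source used here states a pairing. The B cell markers are not reported here.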

Additional observations from a re-analysis of the deposited data

How the results depend on the processing

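The edgeR count of genes higher in the libraries labelled cKO was 0; DESeq2 gave 75, limma on log2(FPKM + 1) and on log2(FPKM + 0.1) gave 1 each, and leaving out each library gave 0 to 2049. The count of lower genes was 0 in edgeR, 1354 in DESeq2 and 0 to 3851 when libraries were left out. Both upper ends came without the library labelled control replicate 2. DESeq2 configured in 2 further ways, an alternative chosen after seeing the data, gave 86 higher and 1425 lower genes with its target level (alpha) set to 0.05 in place of the default, and 85 and 1458 with that level and no low-count filter. Of the channels, DESeq2 called 1 higher in each configuration, and leaving out libraries gave 0 to 6 higher and 0 to 1 lower. Of the partner genes, DESeq2 called 3 lower in each configuration, and leaving out libraries gave 0 to 12 higher and 0 to 5 lower. With spermatid markers as library size the median of the channels reversed to -0.079, Catsper4 to -0.082, Catsperb to -0.075, Catsperd to -0.064, Catsperg1 to -0.20, Catsperg2 to -0.17 and Kcnu1 to -0.099. The median of the channels relative to summed spermatid markers was -0.078, and -0.0054 relative to spermatocyte markers. The cause of these shifts was not tested.

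With the replicate number as a block, edgeR called 0 channels and 0 genes, and the median of the channels was 0.30. Same-numbered libraries had correlations of 0.043, -0.0067 and -0.039 in their deviations from the group means, so the numbers gave no sign of pairing. The order of the channels by FPKM was kept without any one library. Depth limits Hvcn1 most, at 80.4 to 189.8 counts.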
